A study of Caenorhabditis elegans with 6 samples.

Results

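The genes described here are 10 proteases of the cathepsin type in embryos of the nematode Caenorhabditis elegans: the cathepsin B-like cysteine proteases cpr-1, cpr-2, cpr-3, cpr-4, cpr-5 and cpr-6, the cathepsin L gene cpl-1, and the aspartyl proteases asp-1, asp-3 and asp-4. They were taken by gene symbol, with every Affymetrix probe set that names them, which gave 13 of the 22548 probe sets tested and 10 of the 17137 genes named on the array. The genes were chosen by their known class with the mutant and wild type intensities of these same 6 arrays, and the difference between them, already seen. The differences are therefore given as a description, and nothing is supported with them.

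Total RNA of whole embryos was measured on 6 arrays, 3 from the mutant and 3 from the wild type strain N2. The mutant carries mir-35-41(nDf50), a deletion that takes out the microRNAs mir-35 to mir-41 of the embryonic mir-35 family, in strain VT2935 without nEx1187, which by its name is an extrachromosomal array. Mutant and wild type cultures alike were kept at 20 degrees Celsius on agar (NGM) to which chicken egg yolk had been added, and hypochlorite freed the embryos of all stages together. A free-text note of each sample gives instead an early stage in terms that belong to flies. The note differs between replicates, and it was not used. Nothing in the labels says whether the replicates of a group came from separate cultures, so the spread between arrays may be in part technical. The array table names mir-35 to mir-41 on 0 probe sets, so the deletion could not be read here. The comparison asks which embryonic mRNAs differ in level when these microRNAs are missing.

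Cathepsins are proteases of the lysosome, the acidic compartment in which a cell breaks down protein taken in from outside or delivered by autophagy. Cathepsins B and L cut with a cysteine in the active site, and aspartyl proteases of the cathepsin D type cut with a pair of aspartates. They are made as inactive precursors that are trimmed at low pH, and cystatins and some serpins block the active cysteine enzymes. In the nematode the intestine is the main digestive and storage organ, and several of these genes are known from it as gut enzymes, while in the embryo the same class of enzyme acts on stored yolk.

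Each value is the authors' normalized intensity on a linear scale, and each difference is log2 mutant minus log2 wild type from limma with its standard error (SE, n = 3 arrays each). A probe set was called when its Benjamini-Hochberg adjusted p over all 22548 probe sets was below 0.05. Intensities of different probe sets cannot be set against each other, because each binds its target with its own strength. Over all probe sets the log2 intensities of wild type replicate 3 correlated with the other arrays at 0.944 to 0.971 and those of mutant replicates 2 and 3 with each other at 0.998 (r across probe sets, which are not replicates). In RNA from whole embryos, fewer cells that make a transcript and less of the transcript per cell cannot be told apart.

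Of the 13 probe sets, 1 was called higher in the mutant, that of cpr-4, and 0 were called lower by limma. Over all probe sets, 0.124% were called higher and 0.00443% lower. At an unadjusted p under 0.05 there were 4 higher, for cpr-4, cpr-5 and both probe sets of cpr-3, and 0 lower, where the shares over all probe sets were 6.23% and 3.97%. On the same 4 probe sets every mutant array lay above every wild type array, and on 0 of 13 every mutant array lay below, against 6.16% and 9.37% of all probe sets. Because this contrast was used to choose the genes, nothing is read from these shares. The other probe sets had differences from -0.49 to 0.18, and the median of the 13 was -0.07, beside a median of -0.10 over all probe sets. The plot of the 13 probe sets by array shows both the separation in 3 cathepsin B-like genes and the overlap elsewhere.

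**Figure D1:**
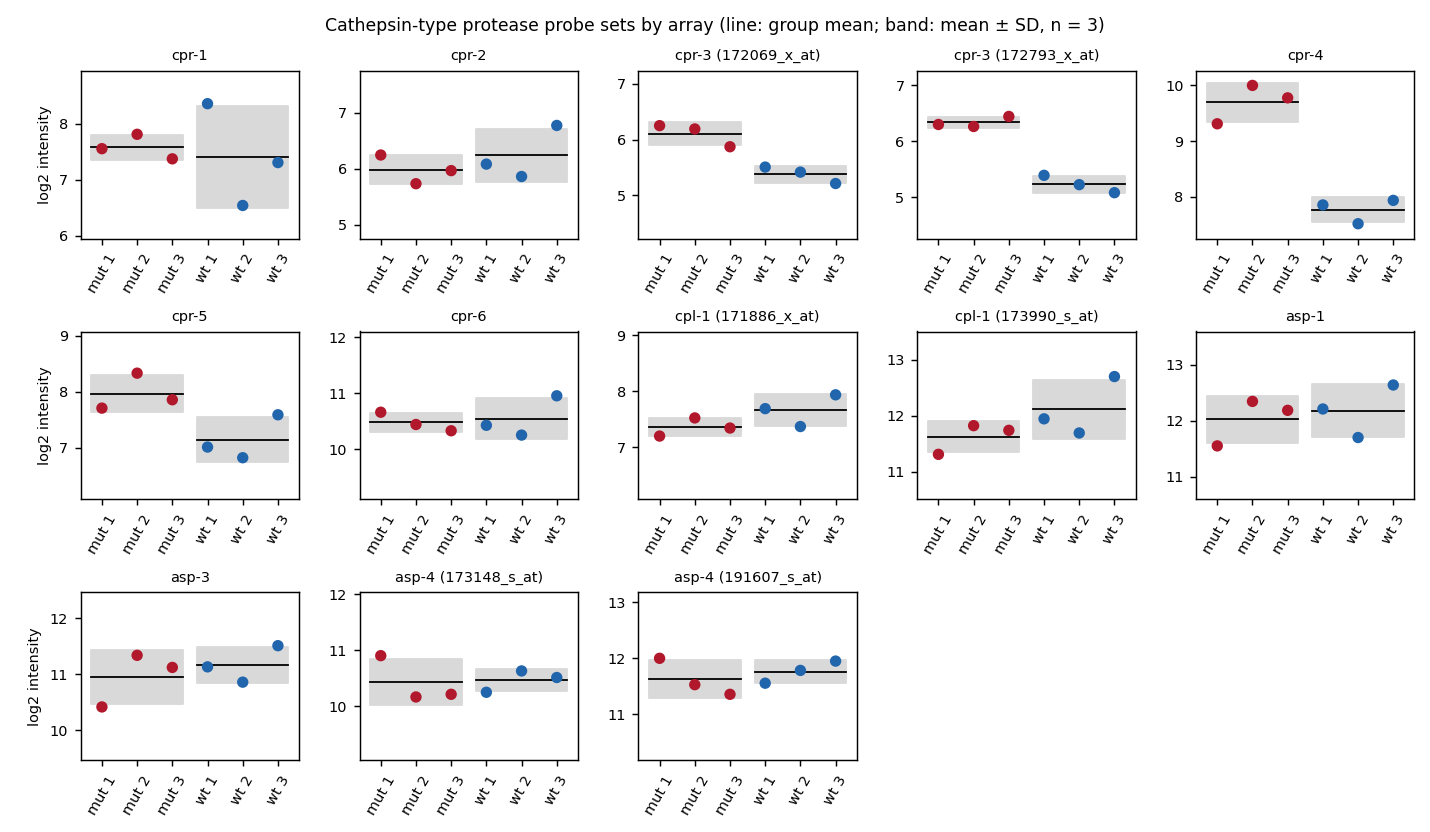
Log2 intensity of each of the 13 probe sets (vertical axis, 3 log2 units high in every panel) on the 3 mutant arrays (red) and the 3 wild type arrays (blue), with the group mean as a line and the mean ± SD as a grey band (n = 3). The mutant points lie wholly above the wild type points for cpr-4, cpr-5 and both probe sets of cpr-3, and the groups overlap on the other 9 panels.

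The cathepsin B-like genes held the 4 separated probe sets. The gene cpr-4 encodes a cathepsin B-like protease that can be secreted and is known in the nematode as a signal released by irradiated cells that acts on cells elsewhere in the animal. Its intensity was 633.8, 1019.5 and 873.9 in the mutant and 232.0, 183.8 and 245.4 in the wild type, given here and below in the order of the replicate numbers 1, 2 and 3. Even the lowest mutant array was 2.58-fold above the highest wild type array. The mean log2 intensity was 9.69 ± 0.35 in the mutant and 7.77 ± 0.22 in the wild type (SD, n = 3 each), a difference of 1.92 ± 0.23 or 3.78-fold, with a limma adjusted p of 0.0442. In the order of all differences from the highest, cpr-4 was number 58 of 22548.

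The call for cpr-4 lay close to the threshold, while its size hardly moved. When single arrays were left out the difference ran from 1.77 to 2.11. The adjusted p was 0.0926 without mutant replicate 1, 0.259 without mutant replicate 2 and 0.231 without mutant replicate 3. Of the wild type arrays, leaving out replicate 1 gave 0.0804, replicate 2 gave 0.0135 and replicate 3 gave 0.141, so among these 6 fits cpr-4 was called only without wild type replicate 2. With mutant replicates 2 and 3 averaged as 1 sample the difference was 1.82 and the adjusted p 0.247.

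The gene cpr-3 encodes another cathepsin B-like protease and was read by a pair of probe sets, both of a type marked as open to cross-hybridisation with related sequences. On the first, 172793_x_at, the intensity was 78.7, 76.8 and 87.0 in the mutant and 41.9, 37.4 and 33.8 in the wild type. The lowest mutant array was 1.83-fold above the highest wild type array, and the groups did not overlap. The difference was 1.10 ± 0.16, or 2.15-fold, with a limma adjusted p of 0.0729 that missed the threshold. Without wild type replicate 2 the adjusted p of this probe set was 0.0221.

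On the other probe set of cpr-3, 172069_x_at, the intensity was 76.0, 73.0 and 58.5 in the mutant and 45.5, 42.7 and 37.1 in the wild type. The arrays of the genotypes were again separate, by 1.29-fold at their nearest. The difference was 0.72 ± 0.18, or 1.65-fold, with an adjusted p of 0.269. The profiles of these probe sets over the 6 arrays, each centred on its own mean, differed by 0.26 log2 units (root mean square). Both were below the median level of the array, so they were not tested when dim probe sets were left out.

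The gene cpr-5, a further member of the cathepsin B-like family, had an intensity of 209.2, 322.6 and 232.1 in the mutant and 129.2, 113.2 and 192.7 in the wild type. The groups were only just apart, since mutant replicate 1 was 1.09-fold above wild type replicate 3. The difference was 0.83 ± 0.26, or 1.77-fold, and did not pass (adjusted p = 0.401). Its probe set has a suffix that marks probes shared by several transcripts, although the table names cpr-5 alone. By order along chromosome V in the WBcel235 assembly, cpr-5 lies between the cathepsin-type gene W07B8.4 and the cathepsin B-like gene cpr-8. The probe set of W07B8.4 differed by -0.28 ± 0.25 and that of cpr-8 by 0.43 ± 0.18, and neither passed the test.

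The remaining genes of the cathepsin B class overlapped between the genotypes. The gene cpr-1, long known as a cysteine protease of the gut, had an intensity of 188.4, 225.1 and 166.1 in the mutant and 328.9, 93.2 and 158.6 in the wild type. The wild type arrays alone spanned 3.53-fold, with the highest and the lowest of all 6 values among them. The difference was 0.18 ± 0.42, and it was -0.25 without wild type replicate 2 and 0.66 without wild type replicate 1.

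The gene cpr-2 had an intensity of 76.0, 53.2 and 62.6 in the mutant and 67.9, 58.2 and 109.5 in the wild type. Wild type replicate 3 stood above the other 5 arrays, and the difference was -0.26 ± 0.27. The gene cpr-6, an ortholog of mammalian cathepsin B, had an intensity of 1615.7, 1387.7 and 1284.0 in the mutant and 1374.2, 1217.2 and 1980.3 in the wild type. Here too wild type replicate 3 was the highest array, wild type replicate 2 was the lowest, and the difference was -0.07 ± 0.22. The profiles of cpr-2 and cpr-6, genes on chromosomes V and X, differed by only 0.16 log2 units over the 6 arrays.

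The gene cpl-1 encodes cathepsin L, which the nematode embryo needs for the processing of yolk and for its development. Its brighter probe set, 173990_s_at, read 2540.8, 3623.8 and 3421.3 in the mutant and 3944.0, 3310.2 and 6658.5 in the wild type. Its dimmer one, 171886_x_at, read 146.8, 183.7 and 162.1 in the mutant and 206.2, 165.2 and 244.7 in the wild type. On both, wild type replicate 3 was highest, mutant replicate 1 was lowest, and the genotypes overlapped. The differences were -0.49 ± 0.29 and -0.31 ± 0.20, and neither passed the test. They stayed below 0 under all the alternatives run, at -0.70 to -0.19 and -0.46 to -0.17.

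The aspartyl proteases showed overlap on all 4 probe sets, with differences from -0.21 to -0.04. The gene asp-1 is known for its expression in the intestine. It had an intensity of 3004.1, 5212.2 and 4666.2 in the mutant and 4744.6, 3331.7 and 6386.5 in the wild type, a difference of -0.16 ± 0.30. Mutant replicate 1 and wild type replicate 2 were the low arrays, 1 in each genotype.

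The gene asp-3 encodes an aspartyl protease that takes part, with asp-4, in the necrotic death of neurons in the nematode. It had an intensity of 1368.1, 2593.2 and 2232.1 in the mutant and 2247.6, 1859.7 and 2922.1 in the wild type, with a difference of -0.21 ± 0.28. The same pair of arrays was low as for asp-1, and the profiles of asp-1 and asp-3 differed by 0.10 log2 units, the smallest distance between any of the 13 probe sets.

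The gene asp-4, a relative of cathepsin D, was the exception in its class. Its probe set 191607_s_at read 4098.9, 2957.4 and 2624.5 in the mutant and 3011.3, 3528.5 and 3960.5 in the wild type. Its probe set 173148_s_at read 1910.9, 1145.7 and 1184.2 in the mutant and 1214.1, 1581.5 and 1457.9 in the wild type. On both, mutant replicate 1 was the highest of the 6 arrays, where asp-1 and asp-3 had their lowest value. The differences were -0.13 ± 0.22 and -0.04 ± 0.24, and the profiles of this pair of probe sets differed by 0.13 log2 units.

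The array on which a probe set was highest or lowest differed within the cathepsin B-like class and within the aspartyl class. It could also differ within a gene. The probe sets of cpr-3 were highest on mutant replicates 1 and 3, and those of asp-4 lowest on mutant replicates 2 and 3. Across classes, the probe sets of cpl-1, asp-1 and asp-3 shared both their highest and their lowest array. Wild type replicate 3 gave the highest value for 6 of the 13 probe sets and mutant replicate 1 the lowest for 4, those of cpl-1, asp-1 and asp-3. Wild type replicate 2 was also lowest for 4, and mutant replicate 1 was highest for 3. Summed over 1 probe set for each of the 10 genes, intensity was 13814 to 17471 in the mutant and 13733 to 22648 in the wild type, with wild type replicate 3 at the top. That array was not high for these genes alone. Its sum over all probe sets was 11960800, against 9638670 to 9803560 on the other arrays. Its median deviation over all probe sets, 0.11, was also the highest, although its median log2 intensity, 6.29, was the lowest.

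Lists of neuron, body wall muscle and maternal markers, set beside these genes, also differed between arrays. Neuron genes were at 0.13, 0.41 and 0.21 on mutant replicates 1, 2 and 3 and at -0.03, 0.05 and -0.76 on the wild type arrays (median deviation of 13 genes from their own means). Every mutant array lay above every wild type array, as on the probe sets of cpr-4, cpr-3 and cpr-5. Among the neuron genes mutant replicate 1 and wild type replicate 2 were close, and wild type replicate 3 stood apart. The deviations of cpr-4 were low on all wild type arrays, at -0.87, -1.21 and -0.79. Both probe sets of cpr-3 were lowest on wild type replicate 3, at -0.53 and -0.70, while cpr-5 was at 0.04 there. Of the 22 neuron probe sets 0 were called by limma, 4 higher and 0 lower had an unadjusted p under 0.05, 18 had a difference above 0, and the median difference was 0.69. The differences were 0.72 ± 0.25 for egl-21, a neuropeptide-processing enzyme, and 0.73 ± 0.27 for unc-18, which acts in synaptic release. Body wall muscle genes were lowest on mutant replicate 1 (median deviation of 13 genes, -0.54) and highest on mutant replicate 2 (0.45). Maternal early embryo genes were at 0.45 and 0.53 on wild type replicates 1 and 3 and between -0.31 and -0.19 on the other 4 arrays. Of their 31 probe sets 0 were called in either direction by limma, with 7 lower and 0 higher at an unadjusted p under 0.05. Their median difference was -0.35. The part of neuronal content, of maternal RNA or of single arrays in the differences of the proteases was not tested.

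**Figure D2:**
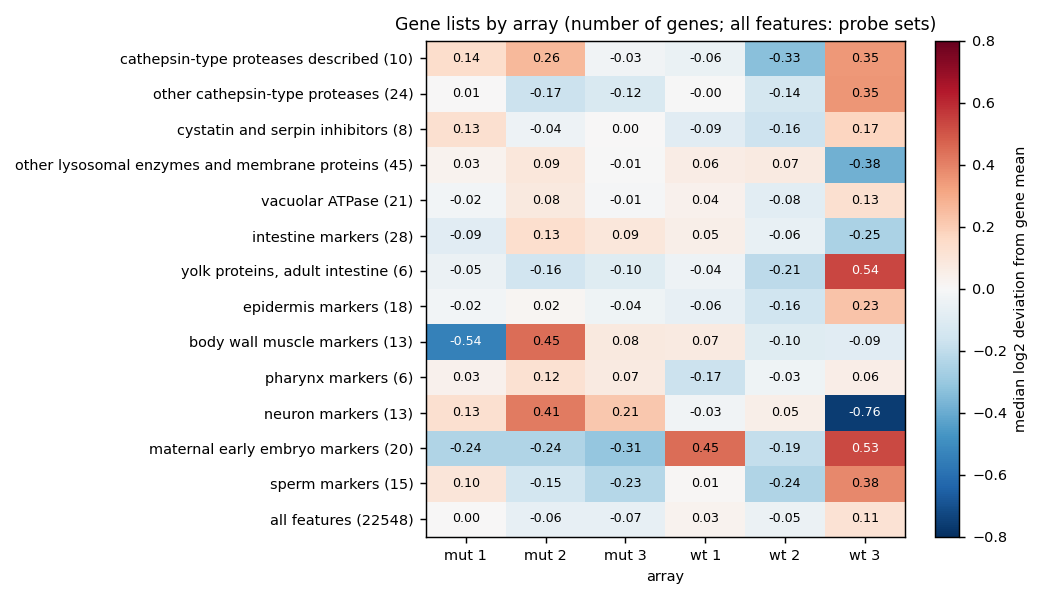
Median log2 deviation of the genes of each list from their own mean over the 6 arrays (colour and printed value), for each array (columns) and list (rows, with the number of genes, 1 probe set each). The 10 proteases range from -0.33 on wild type replicate 2 to 0.35 on wild type replicate 3, while maternal genes are at 0.45 and 0.53 on wild type replicates 1 and 3. All probe sets together are at 0.11 on wild type replicate 3, their highest value.

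The profile of cpr-4 over the 6 arrays was compared with that of every probe set that names a single gene, as a description of these arrays only. The nearest was Y73F4A.2, at a root mean square distance of 0.16 log2 units, followed by ddn-1 at 0.16, Y53H1B.2 at 0.19, the matrix metalloprotease zmp-4 at 0.21 and the fungus-induced peptide gene fipr-2 at 0.24. Among the proteases described here the nearest were cpr-3, at 0.49 and 0.68, and cpr-5, at 0.57. The others were at 1.00 to 1.22. 

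A difference close to that of cpr-4 is fixed by this choice of the nearest profiles, and a call is made likelier by it. Their values are therefore given only to show them. The next nearest, Y43C5A.3 at 0.25 log2 units, was not called (limma adjusted p = 0.12). Y73F4A.2 was 3.54-fold, ddn-1 3.62-fold, Y53H1B.2 3.73-fold, zmp-4 3.76-fold and fipr-2 4.92-fold higher in the mutant, with limma adjusted p between 0.0126 and 0.0442. For ddn-1 the intensity was 183.3, 257.5 and 288.5 in the mutant and 72.6, 61.9 and 63.8 in the wild type. For zmp-4 it was 259.9, 328.2 and 256.3 against 95.3, 61.3 and 70.6.

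**Figure D3:**
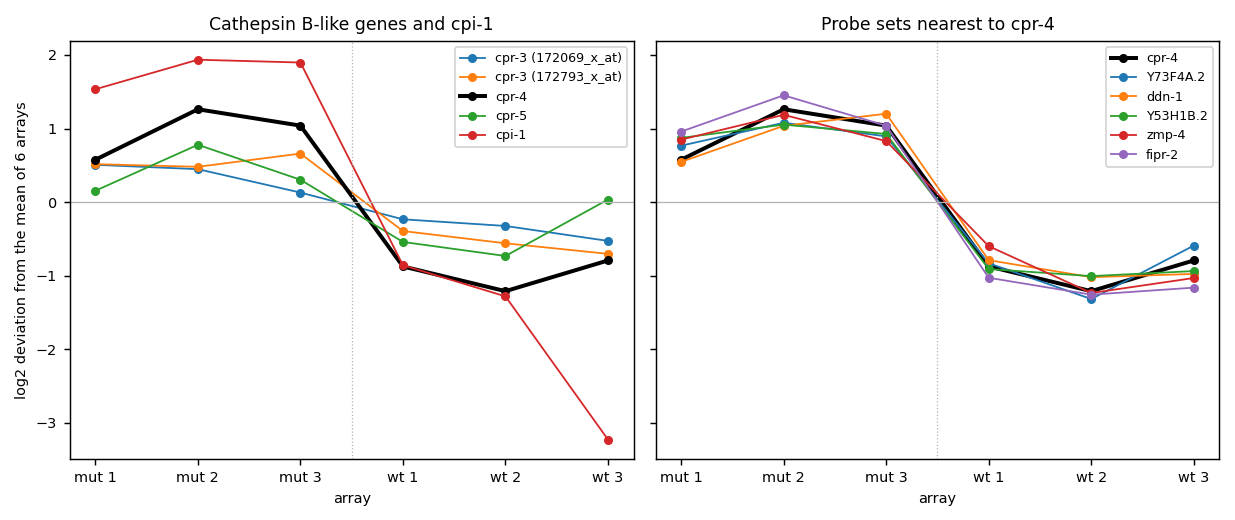
Log2 deviation of a probe set from its own mean over the 6 arrays (vertical axis) on each array (horizontal axis). Lines only join the points of a probe set, since replicates have no order. The left panel shows cpr-4, cpr-5, the 2 probe sets of cpr-3 and the cystatin cpi-1, and the right panel shows cpr-4 with its 5 nearest probe sets, which lie 0.16 to 0.24 log2 units from it.

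Cystatins are the direct inhibitors of cathepsins B and L, and the array reads both nematode cystatins. The intensity of cpi-1 was 700.1, 924.6 and 900.5 on the mutant arrays and 133.4, 99.5 and 25.8 on the wild type arrays. The lowest mutant array was 5.25-fold above the highest wild type array. The mean log2 intensity was 9.71 ± 0.22 in the mutant and 6.13 ± 1.26 in the wild type, whose spread came mostly from the low value of replicate 3. The difference, 3.58 ± 0.56 or 11.9-fold, was the largest of all 22548 probe sets, and its limma adjusted p was 0.0864, so it was not called. Without wild type replicate 3 the difference was 2.86, with an adjusted p of 0.0795, and without wild type replicate 2 it was 3.83, with an adjusted p of 0.0235.

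The other cystatin gene, cpi-2, is known to be needed for making oocytes. Its brighter probe set read 6015.6, 4822.9 and 5076.2 in the mutant and 4963.9, 4832.9 and 8177.2 in the wild type. Its pair of probe sets differed by -0.14 ± 0.24 and -0.11 ± 0.16, with overlap between the genotypes.

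Serpins were listed with the cystatins as further protease inhibitors. In all, 8 of the 11 listed inhibitor genes were measured, by 9 probe sets. Of these 0 were called by limma in either direction, and 3 higher and 1 lower had an unadjusted p under 0.05. The serpin srp-7 had a difference of 0.50 ± 0.18, srp-2 of -0.69 ± 0.28, and srp-6, which protects nematode cells from necrosis, of 0.89 ± 0.37.

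Relatives of the 10 genes were taken as a list of 35 further cathepsin-type proteases, of which 24 were matched and measured, by 27 probe sets. The listed name asp-10 was not matched. A gene now named hrg-7, which may be the same gene, was not counted, and its probe set differed by 0.74 ± 0.27. Of these 0 were called by limma, and 4 higher and 1 lower had an unadjusted p under 0.05. The median difference was -0.23, with 10 of 27 above 0. Over all probe sets the median was -0.10, and 37.8% were above 0. By array, the median deviation of the 24 genes was 0.006, -0.17 and -0.12 in the mutant. In the wild type it was -0.004, -0.14 and 0.35, so wild type replicate 3 stood apart. The aspartyl protease asp-2 had an intensity of 932.8, 1129.5 and 1011.4 in the mutant and 1652.9, 1348.8 and 1856.6 in the wild type, and its groups did not overlap (-0.65 ± 0.18, adjusted p = 0.332).

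The aspartyl protease asp-6 lay on the other side, at 1344.2, 2127.0 and 2060.6 in the mutant and 1155.5, 802.6 and 1196.1 in the wild type on its probe set 173036_s_at. That difference was 0.80 ± 0.25, and its other probe set gave 0.75 ± 0.28, with mutant replicate 1 at the level of the wild type. For tag-196, an ortholog of cathepsin F, the intensity was 1595.8, 1426.5 and 1772.6 in the mutant and 587.6, 1420.8 and 542.1 in the wild type. Wild type replicate 2 almost reached the mutant level, and the difference was 1.05 ± 0.36 (adjusted p = 0.441). The cathepsin Z gene cpz-1, needed for moulting in the nematode, had a difference of -0.39 ± 0.30.

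**Figure D4:**
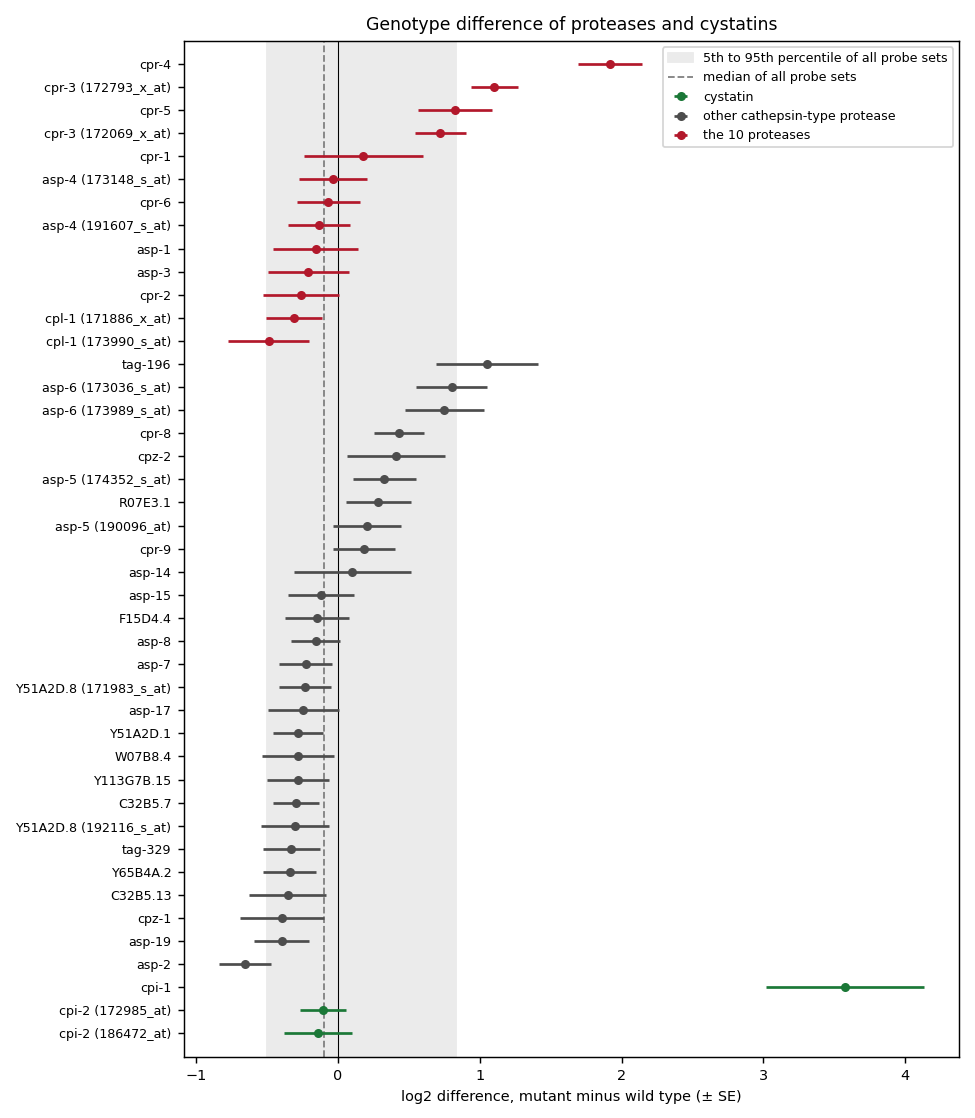
Log2 difference, mutant minus wild type, with its SE (horizontal axis) for the 13 probe sets of the 10 proteases (red), 27 probe sets of other cathepsin-type proteases (grey) and 3 probe sets of cystatins (green). The grey band spans the 5th to 95th percentile of all 22548 probe sets and the dashed line is their median, -0.10. The points of cpr-4 at 1.92 and cpi-1 at 3.58 lie far to the right of the band, and those of cpr-3 at 1.10 and tag-196 at 1.05 just outside it. On the other side asp-2, at -0.65, lies below the band.

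The rest of the lysosome was described by 2 lists. Other lysosomal enzymes and membrane proteins had 45 of 55 listed genes on the array, read by 55 probe sets. Of these 0 were called by limma, 2 higher and 1 lower had an unadjusted p under 0.05, and the median difference was 0.15. Of the 55 probe sets 34 had a difference above 0, where the share over all probe sets was 37.8%. By array, the median deviation of the 45 genes was 0.03, 0.09 and -0.01 in the mutant. In the wild type it was 0.06, 0.07 and -0.38, so only wild type replicate 3 lay below the mutant arrays. The lysosomal exporter of lysine and arginine, laat-1, differed by -0.67 ± 0.18 and the prolyl carboxypeptidase-like gene pcp-3 by 1.23 ± 0.33. Next by p were pcp-2 (0.54 ± 0.21) and lipl-7 (0.85 ± 0.37). The genes hlh-30 and lmp-1 were named after their values were seen, and both were lower, unlike most of the list. The gene hlh-30, the nematode TFEB and a regulator of autophagy and lysosomal genes, had differences of -0.41, -0.31 and -0.23 on its probe sets. The membrane protein lmp-1 had -0.37 ± 0.29 and -0.23 ± 0.23, and none of these passed the test.

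The vacuolar ATPase, the pump that acidifies lysosomes, had 21 genes read by 30 probe sets. Of these 0 were called by limma and 0 had an unadjusted p under 0.05, with a median difference of -0.05 and a range from -0.32 to 0.62.

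Because several of the proteases are known from the gut, intestinal markers were set beside them. Of 39 probe sets for 28 of the 30 listed genes, 0 were called by limma, with 7 higher and 4 lower at an unadjusted p under 0.05 and a median difference of -0.03 in a range from -1.81 to 1.99. The intestinal transcription factor elt-2 had 0.46 ± 0.40 and -0.07 ± 0.30, the gut esterase ges-1 had -0.31 ± 0.17, the intermediate filament gene ifb-2 had -0.02 ± 0.26 and the brush border actin act-5 had -0.20 ± 0.27. The summed intensity of the list was 13051 to 16307 in the mutant and 15096 to 16141 in the wild type.

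Other intestinal genes differed in both directions without passing the test. On 5 of the 39 probe sets of the list every mutant array lay above every wild type array, and on 7 every mutant array lay below. Over all probe sets the shares were 6.16% above and 9.37% below. The 4 genes of smallest p were the metal and stress responsive genes gsto-1 (1.18 ± 0.23), mtl-1 (1.53 ± 0.35) and ftn-1 (1.28 ± 0.32), and the intermediate filament gene ifc-1 (1.99 ± 0.45). On each of these 4 probe sets the mutant arrays lay above the wild type arrays. The 4 probe sets lower at an unadjusted p under 0.05, named after their values were seen, were those of the water channel gene aqp-4 (-0.74 ± 0.18), the sphingosine phosphate lyase gene spl-1 (-0.55 ± 0.15) and the zinc transporter gene ttm-1 (-0.92 ± 0.23 and -0.89 ± 0.28). The yolk protein genes, which are expressed in the adult intestine, were read by 10 probe sets, with 0 called by limma, 0 at an unadjusted p under 0.05 and a median difference of -0.22. Their summed intensity was 253 to 274 in the mutant and 243 to 416 in the wild type, with wild type replicate 3 at the top and wild type replicate 1, at 277, next to the mutant arrays. Wild type replicate 3 was the top array in the sum over all probe sets as well. The part of gut cell number in the difference of cpr-4 was not tested.

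In the genome, 7 of the 10 genes lie on chromosome V and 3, namely cpr-6, asp-3 and asp-4, on chromosome X, by the RefSeq gene table of assembly WBcel235. Chromosome V holds 4995 and X 2730 protein-coding genes in that table, and V is the chromosome with the most. Of the other listed cathepsin-type genes 21 are on V, 4 on II, 3 on X, 2 on I and 1 on IV. Listed names not found among the protein-coding genes of that table are left out of this count. The neighbours of cpr-4 are gon-14 and nhr-37, and asp-1 lies next to asp-15, whose probe set differed by -0.12 ± 0.23.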

How the data were processed

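The linear normalized intensity per probe set was deposited by the authors. Affymetrix Expression Console is the tool named by the submitters' processing notes. Neither version nor normalization method is given in the sources used here. The deposited series table holds the same values as log2 (largest gap 5.63e-06). From the linear table, 77 array controls were dropped and log2 was taken with no constant and no filter. Names were updated through RefSeq (WBcel235): 16045 probe sets matched by symbol, 3566 by sequence name, and 1254 kept the file's name. The fit was limma 3.58.1 in R 4.3.3 (lmFit, eBayes, two-sided, no covariate) with adjustment over 22548 probe sets at a threshold of 0.05, tested on simulated data. Members and lists were chosen with earlier results of these data known. All probe sets of the 10 genes are named, up to 4 genes of smallest p per list described, and the 5 nearest to cpr-4. Other genes were named after their values were seen. The number of arrays, 3 per group, limits the precision. Normalization can remove changes shared by most genes, but with no method given, how far it did so here is not known.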

Additional observations from a re-analysis of the deposited data

How the results depend on the processing

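In 17 alternatives cpr-4 stayed higher in the mutant, by 1.77 to 2.11 on the log2 scale, and it was called in 8. These 8 include the deposited log2 table, which holds the same values, and a 2-fold minimum added to the main fit. Neither could change the call of cpr-4. The fit with array weights, described below, is also among the 8. The count of called-higher probe sets among the 13, which is 1, ranged from 0 to 2 when 1 array was left out, and over the whole array the 29 calls ranged from 0 to 1289. Among the other cathepsin-type proteases the count of 0 ranged from 0 to 1, with 1 without wild type replicate 2. With the replicate number as a block the counts were 0 higher of 13 and 19 in all (adjusted p of cpr-4 = 0.0687); same-numbered arrays deviated with correlations of -0.03, 0.07 and -0.18, so the numbers were not taken to pair the samples. Quantile normalization of the deposited values gave 0 and 3 (0.114), and 16 added before log2 gave 0 and 8 (0.0716). Mutant replicates 2 and 3 as 1 sample gave 0 and 0 (0.247), with 1059 probe sets at an unadjusted p under 0.05 in that fit. Centring arrays on their median gave 50 calls in all and moved the median of all probe sets from -0.10 to -0.22, and an intensity trend with a robust prior gave 46. Array weights gave 4 higher among the 13, 7 higher among the other cathepsin-type proteases and 13639 in all, 4968 higher and 8671 lower, with cpr-1 (-0.76, adjusted p = 0.00576) and a probe set of cpl-1 (-0.27, adjusted p = 0.01) called lower, from a weight estimate that did not converge and put most weight on 1 array. The signs of cpr-1, cpr-2, cpr-6, asp-1, asp-3 and asp-4 differed between alternatives, those of cpr-3, cpr-5 and cpl-1 did not, and the causes were not tested. The adjusted p of cpi-1 was below 0.05 in 5 of 17 alternatives, with differences from 2.77 to 4.04.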

Other observations

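A wider set of peptidases, taken from the gene ontology terms in the deposited table after the data were seen and without the 10 genes, also held few calls. Over all probe sets 6.23% were higher and 3.97% lower at an unadjusted p under 0.05, and 0.124% were called higher and 0.00443% lower. Some of the other cathepsin-type proteases, such as tag-196, asp-2 and asp-6, are counted here again. Of 70 probe sets annotated as cysteine-type peptidase, 0 were called by limma, and 12 higher and 0 lower had an unadjusted p under 0.05, with a median difference of 0.04. The leading ones included the calpain gene clp-4 (1.21 ± 0.30) and ulp-1, a SUMO protease gene (1.28 ± 0.39). Of 139 metalloendopeptidase probe sets 1 was called higher, that of zmp-4, and 10 higher and 5 lower had an unadjusted p under 0.05. Of 34 aspartic-type endopeptidase probe sets 0 were called by limma, with 3 higher and 3 lower at an unadjusted p under 0.05 and a median of -0.11, and of 72 serine-type endopeptidase probe sets 0 were called, with 4 higher and 0 lower.

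Cuticle collagen genes of the epidermis, which wrap the late embryo, included larger differences than most of the proteases. The collagen gene dpy-9 differed by 1.63 ± 0.24 (limma adjusted p = 0.0725). The collagen gene sqt-2 read 585.5, 599.4 and 540.8 in the mutant and 256.1, 169.6 and 272.3 in the wild type (1.33 ± 0.21, limma adjusted p = 0.096). Of the 30 epidermal probe sets 0 were called by limma, 4 higher and 0 lower had an unadjusted p under 0.05, and the median difference was 0.00.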
